A study of Mus musculus with 27 samples.

Results

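The 10 genes Mapk8ip2, Tmcc2, St6galnac6, Rapgef1, Man2a2, Zmiz2, Atg9b, Pigl, B4galt2 and Ubqln4 were selected on measured values: their ribosome-bound mRNA was lower after cocaine than after saline in D2 neurons of control mice. They are 10 of 18193 genes on the array, and all 10 were among the 12017 genes that passed the filter on low values. Messenger RNA was purified from striatal D1 or D2 neurons by translating ribosome affinity purification (TRAP), in which a ribosomal protein (L10a) fused to GFP is expressed in 1 neuron type and pulled down with antibodies to GFP. It was hybridised to 27 Affymetrix mouse arrays.

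All mice were males aged 2 to 5 months on a mixed C57BL/6 and 129/Sv background, and all carried floxed copies of both alleles of G9a (G9a fl/fl). G9a, encoded by Ehmt2, is a histone methyltransferase that acts on histone H3 lysine 9. D2 mutants carried the Drd2 TRAP tag and Drd2-Cre, and gave 4 cocaine and 3 saline arrays. D2 controls carried the Drd2 TRAP tag without Cre, and gave 4 cocaine and 3 saline arrays. D1 mutants carried the Drd1 TRAP tag and Drd1-Cre (4 cocaine and 3 saline arrays), and D1 controls the Drd1 TRAP tag alone (4 cocaine and 2 saline arrays). Genotype therefore also stands for the Cre transgene, and deletion reaches every cell that uses the receptor promoter. Mice received 8 injections, of 20 mg/kg/day cocaine in the cocaine groups, and tissue was taken 2 h after the last. Per the series' design text the replicates are mice. Mutant minus control on the log2 scale, Ehmt2 differed by -1.81 in D2 neurons (SE 0.125, limma adjusted p = 4.23e-11) and by -1.72 in D1 neurons (SE 0.131, adjusted p = 5.41e-10). The source name of D2 mutant cocaine replicate 4 goes against its title and reads as a control. Its Ehmt2 level was 8.96, inside the range of the D2 mutant cocaine arrays (8.68 to 9.38) and below that of the D2 control cocaine arrays (10.67 to 10.79). As group means, Drd2 was 12.71 to 13.47 in the D2 groups and 6.72 to 6.88 in the D1 groups. Drd1 was 12.50 to 12.71 in the D1 groups and 9.84 to 10.55 in the D2 groups. Each labelled neuron type was thus the richer in its defining receptor. Within the D2 groups Drd1 was at 10.43 (cocaine) and 10.55 (saline) in mutants and at 9.84 and 10.07 in controls. TRAP levels are of bulk RNA, so fewer cells of a type and less RNA per cell cannot be told apart.

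D1 and D2 neurons are the main projection neurons of the striatum. D1 neurons form the direct pathway and D2 neurons the indirect pathway, and cocaine raises dopamine at both by blocking its reuptake. The 10 genes do not form 1 pathway. Mapk8ip2 (a scaffold of JNK signalling) and Rapgef1 (an exchange factor for the GTPase Rap1) belong to intracellular signalling. St6galnac6, Man2a2, B4galt2 and Pigl build or trim glycans and glycolipid anchors. Atg9b and Ubqln4 serve autophagy and delivery of proteins to the proteasome. Zmiz2 is a nuclear coactivator related to the PIAS family, and Tmcc2 is a membrane protein with coiled-coil domains.

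Since the cocaine change in D2 controls chose the genes, their values there are a description and carry no test. Levels are deposited log2 values of 1 probe set per gene, and a change is cocaine minus saline on that log2 scale. Levels of different probe sets cannot be set against each other. In D2 controls the members fell by 0.44 (Ubqln4, 1.36-fold) to 0.71 (Mapk8ip2, 1.64-fold), with a median of -0.58, where the median of all 12017 genes was -0.05. In this contrast 14 genes were called lower by limma at an adjusted p under 0.05 (0.117% of genes). They were the 10 members and Zfp521 (-0.42), Nhlrc3 (-0.51), Wsb2 (-0.42) and 2610507B11Rik (-0.45). The members nearest the threshold on the inside were Ubqln4, Pigl (-0.54) and Tmcc2 (-0.68), and the nearest genes outside it were Sel1l3 (-0.52), B4galnt4 (-0.45) and Kirrel3 (-0.40). All 10 members had every cocaine array below every saline array in D2 controls, as had 7.61% of all genes.

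**Figure D1:**
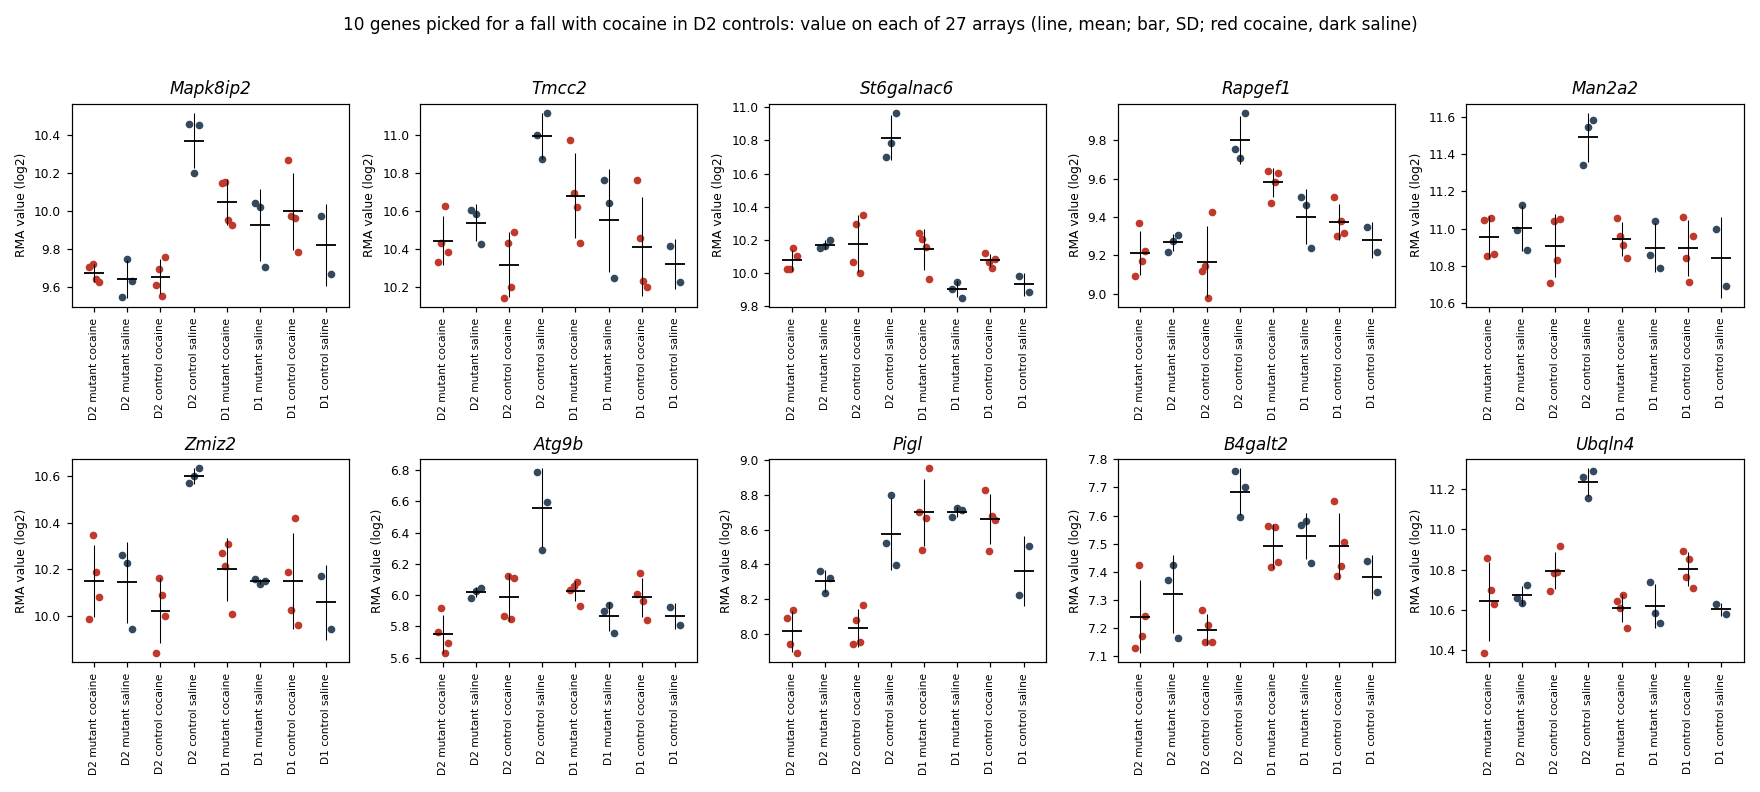
Level of each of the 10 genes on each of the 27 arrays (y axis, log2 RMA value, own scale per gene), by subtype, genotype and drug (x axis). Points are arrays (red cocaine, dark saline), horizontal lines are group means and vertical bars are SD. The 3 D2 control saline arrays sit high, and their mean is the highest of the 8 groups in 9 of the 10 genes, all but Pigl.

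Among the signalling genes, Mapk8ip2 stood at 9.61, 9.70, 9.55 and 9.76 in D2 control cocaine arrays, against 10.45, 10.20 and 10.45 in D2 control saline arrays. The other 6 groups had means from 9.64 to 10.05, so the D2 control cocaine mean (9.66) lay at the level of the D2 mutants, and the saline mean (10.37) above that of every other group. Rapgef1, which loads Rap1 with GTP downstream of growth factor receptors, was at 9.12, 9.14, 8.98 and 9.42 in D2 control cocaine arrays and at 9.75, 9.71 and 9.94 in D2 control saline arrays. Its means in the other groups ran from 9.21 to 9.58.

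The glycan genes had the same layout. St6galnac6, which adds sialic acid to N-acetylgalactosamine on glycolipids and glycoproteins, had levels of 10.06, 10.30, 9.999 and 10.35 in D2 control cocaine arrays, against 10.70, 10.78 and 10.97 in D2 control saline arrays. The other groups averaged 9.90 to 10.17. Man2a2, a Golgi mannosidase that trims N-glycans before branches are added, gave 10.71, 11.04, 10.83 and 11.05 in D2 control cocaine arrays and 11.34, 11.54 and 11.59 in D2 control saline arrays. For both genes the saline arrays lay clear of all the others. B4galt2, a galactosyltransferase that extends N-glycan branches, was at 7.26, 7.15, 7.21 and 7.15 with cocaine and at 7.76, 7.59 and 7.70 with saline in D2 controls. Pigl, the deacetylase of an early step of glycosylphosphatidylinositol (GPI) anchor synthesis, was at 7.94, 8.08, 7.95 and 8.17 with cocaine and at 8.52, 8.80 and 8.39 with saline in D2 controls. Pigl was the exception in the order of groups: D1 mutants averaged 8.70 under each drug and D1 control cocaine arrays 8.66, above the D2 control saline mean of 8.57 ± 0.209 (SD, n = 3), gaps smaller than that SD.

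Of the genes for protein and organelle turnover, Ubqln4, a ubiquilin that carries ubiquitinated proteins to the proteasome, was at 10.69, 10.78, 10.79 and 10.92 in D2 control cocaine arrays and at 11.26, 11.16 and 11.29 in D2 control saline arrays. Its remaining group means, all at or below 10.80, did not reach the saline arrays. Atg9b, a paralog of the membrane protein ATG9A that supplies lipid to autophagosomes, was at 5.86, 6.12, 5.85 and 6.11 with cocaine and at 6.79, 6.29 and 6.60 with saline in D2 controls. The Atg9b probe set was dim: it averaged 6.00 over 27 arrays and exceeded the floor of 6 in 12 of them, so its changes lie near the lower limit of the scale. Zmiz2 had 9.84, 10.16, 10.09 and 10.001 with cocaine and 10.57, 10.60 and 10.63 with saline in D2 controls. Tmcc2 had 10.15, 10.43, 10.20 and 10.49 with cocaine and 10.9999, 10.87 and 11.11 with saline in D2 controls. Zmiz2 saline arrays were above all 24 others, whereas those of Tmcc2 overlapped 1 D1 mutant cocaine array at 10.97.

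Seen over all groups, the D2 control saline arrays were the ones that stood apart. The mean of the 10 genes was 9.81 ± 0.0565 there (SD, n = 3), and the other 24 arrays spanned 9.13 to 9.53. It was 9.22 ± 0.0621 in D2 mutant cocaine arrays (n = 4), 9.31 ± 0.0400 in D2 mutant saline arrays (n = 3) and 9.23 ± 0.107 in D2 control cocaine arrays (n = 4). It was 9.44 ± 0.0673 and 9.35 ± 0.0963 in D1 mutant cocaine and saline arrays and 9.38 ± 0.0990 and 9.25 ± 0.0876 in D1 control cocaine and saline arrays (n = 4, 3, 4 and 2). St6galnac6, Rapgef1, Man2a2, Zmiz2, Atg9b and Ubqln4 had all 3 D2 control saline arrays above all 24 others (6 of 10, against 0.899% of all genes), and all 10 members had them above the 7 D2 mutant arrays (6.42% of genes). These arrays served to pick the genes, so nothing is read from these counts.

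Several members have further probe sets, which the rule did not choose but which read the same RNA in the same arrays. Of 11 such probe sets 8 exceeded the floor in at least 3 arrays, and 6 of these 8 had a negative change in D2 controls. Over all genes, each with 1 probe set, 64% had a negative estimate there. A pair of further Mapk8ip2 probe sets (-0.55 and -0.43) and that of Tmcc2 (-0.54) had every cocaine array below every saline array. Over all genes 7.61% had this separation. The same arrays chose the genes, so nothing is read from these counts. The second probe sets of Rapgef1 (0.01), B4galt2 (0.05) and Pigl (-0.13) did not follow the chosen ones. Those of Rapgef1 and B4galt2 lay near the floor, with means of 6.06 and 5.99, above 6 in 18 and 13 of 27 arrays. That of Pigl averaged 7.52. With the mean of all probe sets per gene the median change of the members in D2 controls was -0.34 in place of -0.58.

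Other measures also differed between cocaine and saline arrays of D2 controls. Oligodendrocyte markers had lower estimates in 8 of 8 tested genes (median -0.27, none called), with a mean level of 7.33 to 8.08 in cocaine arrays and 8.07 to 8.26 in saline arrays. Astrocyte markers had lower estimates in 6 of 6 (7.05 to 7.67 with cocaine and 7.58 to 7.73 with saline) and cholinergic interneuron markers in 3 of 3 (6.62 to 7.42 with cocaine and 6.64 to 7.73 with saline). D2 mutants had oligodendrocyte means of 8.29 to 8.67 with cocaine and 8.25 to 8.58 with saline, at or above the D2 control saline range. The RNA quality measure, the 3' minus 5' log2 difference of Gapdh and Actb, was 1.97 to 2.29 in D2 control cocaine arrays and 2.18 to 2.49 in D2 control saline arrays, and with it as a covariate the members' median change was -0.59. The choroid plexus transcript Ttr was high in D2 control cocaine replicate 3 (11.40), and without the 3 arrays with Ttr above 9.5 the median was -0.56. Markers of the projection neurons moved as well. D1 neuron markers had lower estimates in 8 of 9 (median -0.23), with mean levels of 7.75 to 7.98 in D2 control cocaine arrays and 7.91 to 8.27 in saline arrays, and held the only called gene of the marker lists, Zfp521 (limma adjusted p = 0.0352). Markers shared by both neuron types had lower estimates in 11 of 13 (median -0.08; 12.28 to 12.59 with cocaine and 12.45 to 12.57 with saline) and D2 neuron markers in 5 of 7 (median -0.15; 11.16 to 11.60 with cocaine and 11.41 to 11.52 with saline). Drd2 itself was at 12.94 to 13.16 in D2 control cocaine arrays and 13.26 to 13.60 in saline arrays, a change of -0.41 (limma adjusted p = 0.362). Negative estimates also stood at 5 of 7 GABAergic interneuron, 2 of 2 microglia, 2 of 4 endothelial and mural, 1 of 3 cortical excitatory and 0 of 3 ependymal and choroid plexus markers, none called, where 64% of all genes were negative. The part of the marker lists, RNA quality and Ttr in the result was not tested. The covariate fit and the fit without the arrays high in Ttr use the contrast that chose the genes.

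**Figure D2:**
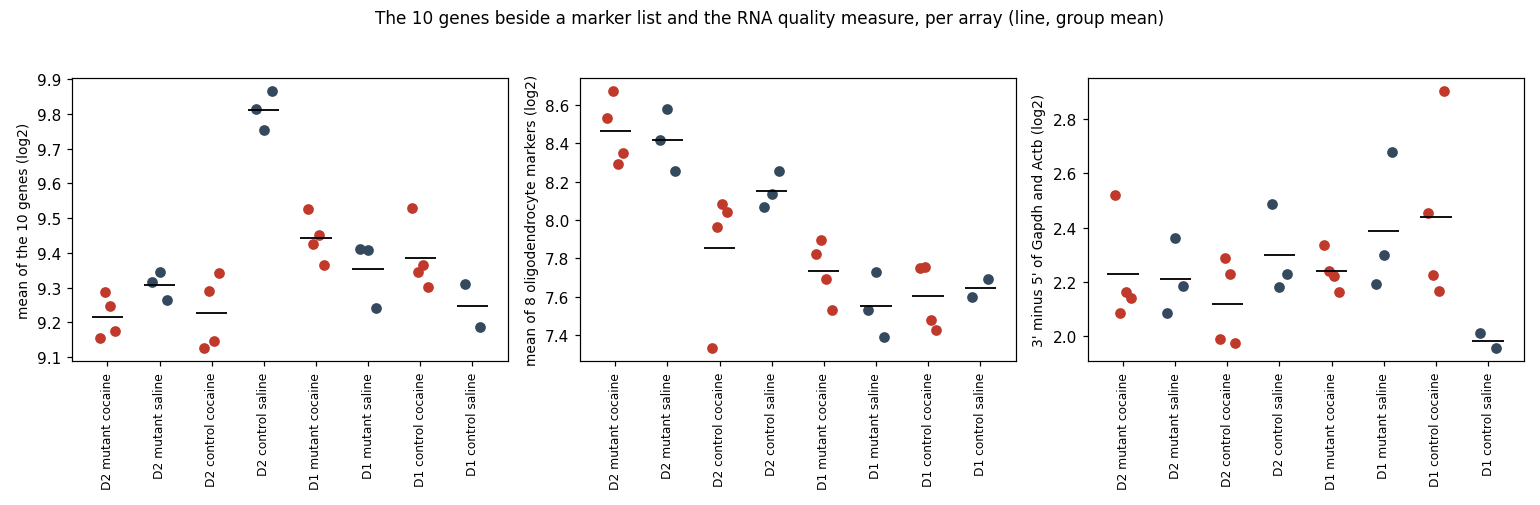
Mean log2 level of the 10 genes (left), mean log2 level of 8 oligodendrocyte markers (middle) and the 3' minus 5' log2 difference of Gapdh and Actb (right) on each array, by group. Points are arrays (red cocaine, dark saline) and lines are group means. The D2 control saline arrays are highest for the 10 genes (9.75 to 9.87), and the group means of the oligodendrocyte markers are highest in D2 mutants.

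In the strata that the rule did not use, cocaine against saline asked whether the same genes were lower. None of the 10 members passed limma's test in D2 mutants, D1 mutants or D1 controls. In D2 mutants 0 of 12017 genes were called in either direction (0%). An unadjusted p under 0.05 was reached by 588 genes, 2 of the members among them. This is near the share of genes that the threshold of 0.05 gives with no effect. The members' changes ran from -0.29 to 0.03 with a median of -0.07, where all genes had a median of 0.00. Pigl was at 8.09, 7.94, 8.14 and 7.89 in D2 mutant cocaine arrays and at 8.36, 8.23 and 8.32 in D2 mutant saline arrays. Its change was -0.29 (SE 0.111, 95% interval -0.52 to -0.06, limma adjusted p = 0.98). Atg9b was at 5.76, 5.92, 5.63 and 5.69 with cocaine and at 5.98, 6.03 and 6.04 with saline in D2 mutants. Its change was -0.27 (SE 0.104, 95% interval -0.48 to -0.05, limma adjusted p = 0.98). Atg9b and Pigl had every D2 mutant cocaine array below every saline array (2 of 10 members, against 3.40% of genes), though neither held after adjustment and most Atg9b values were under the floor. For the other 8 members the interval held 0, and its lower bound was never under -0.38 (Tmcc2).

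**Figure D3:**
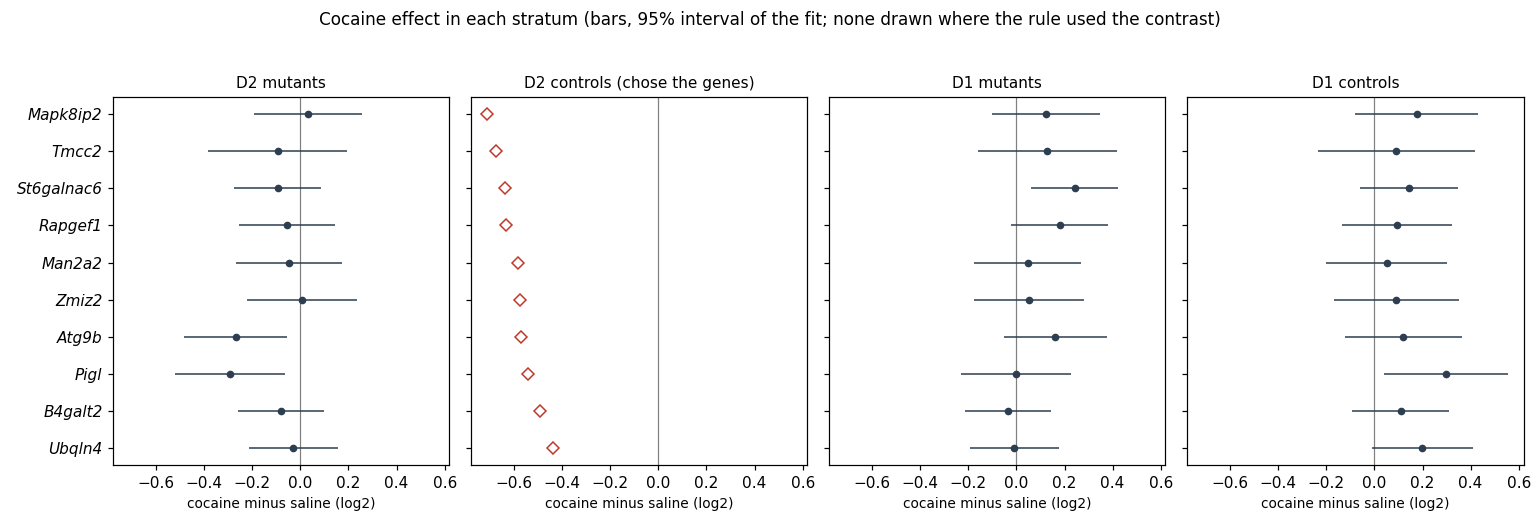
Cocaine minus saline (x axis, log2) for each of the 10 genes in D2 mutants, D2 controls, D1 mutants and D1 controls. Filled points are limma estimates with 95% intervals, and open diamonds mark the D2 controls, whose values chose the genes and carry no interval. Estimates in D2 mutants run from -0.29 to 0.03, in D1 mutants from -0.03 to 0.24 and in D1 controls from 0.05 to 0.30.

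In D1 mutants 11 genes were called (0.0915%), none of them a member. Only 1 member, St6galnac6, had an unadjusted p under 0.05 in limma, and it ranked 467 of 12017 genes by p. The members' estimates ran from -0.03 to 0.24 with a median of 0.09, against 0.04 for all genes. St6galnac6 was at 10.24, 10.21, 10.16 and 9.97 in D1 mutant cocaine arrays and at 9.91, 9.95 and 9.85 in D1 mutant saline arrays, a change of 0.24 (SE 0.0876, limma adjusted p = 0.275). It was the only member whose D1 mutant cocaine arrays all lay above the saline arrays (1 of 10, against 8.82% of genes).

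In D1 controls 8 genes were called, all higher (0.0666%), and again no member. Only 1 member, Pigl, had an unadjusted p under 0.05 in limma, and it ranked 921 of 12017 genes by p. All 10 members had positive estimates, 0.05 to 0.30 with a median of 0.11, where the median of all genes was 0.03 and 42.5% of genes had negative estimates. Some of these signs turned under an alternative. With cyclic loess Man2a2 was at -0.01 and with the RNA quality covariate at -0.03, and with the mean of all probe sets B4galt2 was at -0.04 and Ubqln4 at -0.02. Without D1 control saline replicate 2, which leaves 1 saline array, Man2a2 was at -0.10, Zmiz2 at -0.02 and Tmcc2 at -0.003. Without D1 control cocaine replicate 1, Tmcc2 was at -0.02 and Man2a2 at -0.005. The largest was Pigl, at 8.83, 8.48, 8.68 and 8.66 in D1 control cocaine arrays and at 8.22 and 8.51 in D1 control saline arrays, a change of 0.30 (SE 0.126, limma adjusted p = 0.344). Its groups overlapped by 1 array. St6galnac6 and Ubqln4 had every D1 control cocaine array above both saline arrays (2 of 10, against 13.8% of genes). The D1 control cocaine arrays also lay above the saline arrays in the RNA quality measure (2.17 to 2.90 with cocaine, 1.96 to 2.01 with saline), and its part was not tested.

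Averaged over these 3 strata, 110 genes were called (0.915%), and 0 members had an unadjusted p under 0.05 in limma. The member with the smallest p, St6galnac6, ranked 2001 of 12017 genes. The members' changes were -0.00 to 0.11, all 10 intervals held 0, and the lowest bound was -0.14. The largest estimates were those of Mapk8ip2 (0.11, SE 0.0659, adjusted p = 0.509) and St6galnac6 (0.10, SE 0.0529, limma adjusted p = 0.464). A difference of the cocaine effect from D2 controls was not tested, since it uses the contrast that chose the genes. Between D2 mutants and D1 mutants, which the rule did not use, the cocaine effect did not differ for any gene after adjustment (0% called). An unadjusted p under 0.05 was reached by 565 genes, near the share that this threshold gives with no effect. Of the members, Atg9b (difference -0.43, SE 0.147) and St6galnac6 (-0.34, SE 0.124) were among those 565, with limma adjusted p = 0.955 each. Between D1 mutants and D1 controls 0 genes were called by limma (1340 had an unadjusted p under 0.05, none of them a member), and member differences were -0.30 (Pigl) to 0.10 (St6galnac6).

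Immediate early genes, which neurons induce within hours of stimulation, were measured beside the members in the same contrasts. Of 18 tested, 13 were called higher in the mean of the 3 strata, among them Fos (1.80, limma adjusted p = 0.000336), Nr4a3 (1.70) and Arc (1.04). In D2 controls Fos (2.62) and Arc (1.23) were the only genes called higher (0.0166% of genes). In D2 mutants no immediate early gene was called, although 17 of 18 had positive estimates with a median of 0.59.

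Mutants were then compared with controls within each subtype. In D1 neurons, with both drugs weighted as in the D2 groups, no member was called by limma, while 540 genes were (4.49%). The members ran from -0.10 (Ubqln4) to 0.25 (Tmcc2), with a median of 0.07 against 0.01 for all genes. Tmcc2 (SE 0.103, adjusted p = 0.24), Rapgef1 (0.17, SE 0.0717, adjusted p = 0.263) and Pigl (0.17, SE 0.0816, limma adjusted p = 0.367) had an unadjusted p under 0.05. By p they ranked 1123, 1241 and 1598 of 12017 genes. None of these estimates held after adjustment over all genes.

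In D2 neurons this comparison contains the arrays that chose the genes, and its values are given without a test. With saline the members were lower in D2 mutants than in D2 controls by 0.27 (Pigl) to 0.73 (Mapk8ip2), a mean difference of -0.50, and all 10 had every mutant array below every control array (12.5% of genes had). With cocaine the differences were -0.24 (Atg9b) to 0.13 (Zmiz2), with a mean of -0.01, and no member separated D2 mutants from D2 controls. Averaged over the 10 genes, D2 mutants under both drugs (9.22 and 9.31) thus lay near the D2 control cocaine mean of 9.23. Weighted over both drugs, the D2 differences were -0.12 to -0.37, and all 10 were negative with the chosen probe sets. With the mean of all probe sets Pigl was at 0.08.

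**Figure D4:**
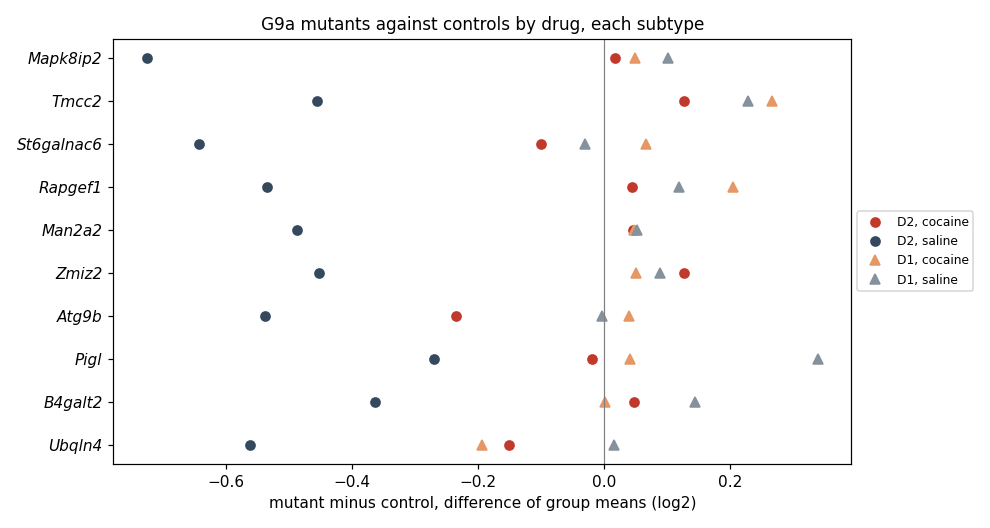
Mutant minus control difference of group means (x axis, log2) for each gene in D2 neurons (circles) and D1 neurons (triangles), with cocaine or saline. The D2 saline values lie between -0.73 and -0.27, and the D2 cocaine values between -0.24 and 0.13. Points are differences of group means of 2 to 4 arrays and have no error bars.

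D2 against D1 neurons was compared in mutants, which the rule did not use. Of the 10 members 4 were lower in D2 than in D1 mutants, where 17.1% of all genes were, and none was higher (25.7% of genes). With the chosen probe sets Pigl was lower by the most, at 7.89 to 8.36 (median 8.14) in the 7 D2 mutant arrays and 8.48 to 8.96 (median 8.70) in the 7 D1 mutant arrays. Its difference was -0.56 (SE 0.0776, limma adjusted p = 3e-06), and the groups did not overlap (1 of 10 members, against 6.05% of genes). Mapk8ip2 differed by -0.33 (SE 0.0763, limma adjusted p = 0.00103), Rapgef1 by -0.27 (SE 0.0681, adjusted p = 0.00258) and B4galt2 by -0.23 (SE 0.0607, adjusted p = 0.00322), with overlapping arrays. With the mean of all probe sets Pigl (-0.15, adjusted p = 0.0571) and Rapgef1 (-0.13, limma adjusted p = 0.0557) no longer passed. Pigl has 2 probe sets, so this mean places its second one higher in D2 than in D1 mutants. That probe set exceeded 6 in all 27 arrays and was not fitted alone. The other 6 members lay between -0.14 (Tmcc2) and 0.08 (St6galnac6), and their intervals held 0. With cyclic loess Tmcc2 also passed (-0.23, limma adjusted p = 0.0482), and the split over all genes was 2604 higher and 2647 lower in place of 3087 and 2051. In controls, where D2 arrays chose the genes, D2 minus D1 ran from -0.27 (Pigl) to 0.44 (St6galnac6) and is given without a test.

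The pathways to which the members belong were described from lists chosen with earlier results of these data known. In D2 controls every called gene of these lists was a member. Of 29 N-glycan processing genes 2 were called lower (Man2a2 and B4galt2), 24 had negative estimates and the median was -0.21. The lowest others were the branching enzymes Mgat4b (-0.45, limma adjusted p = 0.131) and Mgat5 (-0.35, adjusted p = 0.257). Of 16 sialyltransferases 1 was called (St6galnac6), with a median of -0.22, and St8sia4 (-0.46) and St3gal2 (-0.45) came next. Of 24 GPI anchor genes 1 was called (Pigl) and 22 were negative, with a median of -0.15. Against this, 64% of all genes had negative estimates in D2 controls.

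In D2 mutants, which the rule did not use, no gene of these 3 lists was called. There 21 of 29 N-glycan genes (median -0.08), 11 of 16 sialyltransferases (-0.09) and 15 of 24 GPI anchor genes (-0.02) had negative estimates, as had 48.6% of all genes. In D1 mutants the medians were -0.01, 0.02 and 0.10, and in D1 controls -0.02, 0.02 and 0.14, in the same order of lists. The lists include the members, and differences between lists were not tested.

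For the other lists the medians in D2 controls were -0.08 for 33 autophagy genes, -0.05 for 10 ubiquilins and proteasome shuttles, -0.03 for 21 JNK cascade genes, -0.04 for 22 Rap1 regulators and effectors and -0.06 for 16 genes of the SUMO pathway, each with 1 gene called lower, the member. Of 23 paralogs of the members none was called lower or higher in any of the 4 strata, and their median in D2 controls was -0.09. The paralogs with the lowest changes in D2 controls, Mapk8ip1 (-0.47, limma adjusted p = 0.364) and Atg9a (-0.26, adjusted p = 0.481), did not pass. In the mean of the other 3 strata, 3 genes of these lists were called, all higher: the phosphatase Dusp1 (0.71, limma adjusted p = 0.00419), the kinase Map3k4 (0.23, adjusted p = 0.0438) and Dpm3, a subunit of dolichol-phosphate mannose synthase (0.43, adjusted p = 0.0364).

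By the root mean square difference from the members' mean profile over 27 arrays, each gene centred on its own mean, the closest of 12007 other genes were Rnf220 (0.0947 log2), Kirrel3 (0.101), Atp6v0e2 (0.114), Retreg2 (0.116) and Adgrl1 (0.120), where the median gene was at 0.262. Their cocaine changes in D2 controls were -0.32 to -0.41, and no more than 0.11 below 0 in D2 mutants. The profile includes the D2 control arrays that chose the members, so genes near it share the fall there by construction. The members themselves, which make up that mean profile, were at 0.0895 (Rapgef1) to 0.266 (Pigl). This distance also depends on how much a gene varies, so it does not measure how closely a gene follows the profile.

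The genes lie on 8 chromosomes, with Mapk8ip2 on 15, Tmcc2 on 1, St6galnac6 and Rapgef1 on 2, Man2a2 on 7, Zmiz2 and Pigl on 11, Atg9b on 5, B4galt2 on 4 and Ubqln4 on 3 (RefSeq, GRCm38.p6), and span 7963 (Atg9b) to 120645 bases (Rapgef1). RefSeq promoter windows were matched for 8 of the 10 members, in 10 windows of 250 bases before an annotated transcript start. Their GC content was 47.6% to 78.0%, where the median of 32851 promoters was 52.4%. Windows of 4 members are shown, up to the first base of the gene. These 4 had the largest difference between D2 mutants and D2 controls over both drugs. That difference contains the arrays that chose the genes, so no shared change is read from it. Capitals mark the GC box GGGCGG on either strand.
Mapk8ip2 (chr15:89453661-89453910, + strand): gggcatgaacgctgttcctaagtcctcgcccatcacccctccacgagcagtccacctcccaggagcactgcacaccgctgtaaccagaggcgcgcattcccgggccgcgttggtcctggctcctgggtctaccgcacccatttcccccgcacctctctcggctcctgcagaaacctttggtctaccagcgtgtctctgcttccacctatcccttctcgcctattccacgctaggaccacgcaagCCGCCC
St6galnac6 (chr2:32599459-32599708, + strand): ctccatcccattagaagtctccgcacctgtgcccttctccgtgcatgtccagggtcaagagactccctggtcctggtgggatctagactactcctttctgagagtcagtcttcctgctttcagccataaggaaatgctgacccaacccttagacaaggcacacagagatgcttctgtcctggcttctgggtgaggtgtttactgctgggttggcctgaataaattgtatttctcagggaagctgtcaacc
Atg9b (chr5:24392144-24392393, - strand): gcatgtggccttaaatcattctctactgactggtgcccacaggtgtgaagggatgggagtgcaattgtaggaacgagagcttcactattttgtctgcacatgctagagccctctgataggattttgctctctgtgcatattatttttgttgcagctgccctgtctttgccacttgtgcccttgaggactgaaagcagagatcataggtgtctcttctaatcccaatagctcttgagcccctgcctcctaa
Ubqln4 (chr3:88553466-88553676, + strand): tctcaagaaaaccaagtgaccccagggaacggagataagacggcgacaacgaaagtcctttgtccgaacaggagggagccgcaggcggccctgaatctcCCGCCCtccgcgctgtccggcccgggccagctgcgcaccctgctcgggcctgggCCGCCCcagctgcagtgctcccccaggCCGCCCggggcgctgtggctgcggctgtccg
The Mapk8ip2 window held 1 GC box, that of Ubqln4 3 in the 211 bases shown, and those of St6galnac6 and Atg9b none. A GC box was in 4 of the 10 member windows and in 32.7% of all promoters. The EGR letters GCGNGGGCG were in 1 (B4galt2) and in 4.70% of all promoters. The cyclic AMP response element TGACGTCA (1.55% of all promoters), its core TGACG (17.8%), the AP-1 letters TGANTCA (6.75%) and the E-box CACGTG (6.02%) were in none of the 10. The core lies within the full element, and the GC box and EGR letters can overlap. These matches describe letters in the windows only.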

How the data were processed

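Per the submitters' processing notes, the authors summarised the scans with RMA (robust multi-array averaging) in Affymetrix Expression Console 1.1, which gave the deposited log2 values of 45101 probe sets. Global scaling in a further Affymetrix program is named in the series' design text. The number of arrays limits the precision. Each of 18193 symbols of the 2016 annotation was represented by the probe set with the highest mean, and was tested when it exceeded 6 in at least 3 arrays (12017 genes).

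All arrays were fitted in limma 3.58.1 (R 4.3.3) with 1 mean per group. Benjamini-Hochberg adjustment ran over all genes of a contrast, and an adjusted p under 0.05 was called. Contrasts over both drugs weighted saline by 3/7 and cocaine by 4/7. The code was tested on simulated data. The members and lists were chosen with earlier results of these data known. The comparison of D2 with D1 mutants was added after the data were seen. All members were fitted in every comparison, though not all are named in each. In the lists, naming was limited to genes called for cocaine (at most 3) and the 2 lowest in D2 controls. Not all of these are given. Alternatives covered scaling, filter, probe set choice, moderation, array weights, covariate, replicate block, the array with conflicting labels and leaving out arrays.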

Additional observations from a re-analysis of the deposited data

Results flagged for a closer look

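Members whose cocaine arrays all lay on the opposite side of the saline arrays in D2 controls and in another stratum were looked at again. St6galnac6, lower with cocaine in every array of D2 controls, was higher with cocaine in every array of D1 mutants (0.24) and of D1 controls (0.14). Ubqln4, also lower in every array of D2 controls, was higher in every array of D1 controls (0.20). These differences between strata were not tested, because the D2 control values chose the genes. Such a separation was seen in 1 of 10 members and 8.82% of genes in D1 mutants. In D1 controls, with 2 saline arrays, it was seen in 2 of 10 members and 13.8% of genes. Nothing is read from these counts. In limma, St6galnac6 had an adjusted p of 0.275 in D1 mutants and 0.619 in D1 controls, and Ubqln4 0.458 in D1 controls. No sample stood far from the others of its group in the 40 member groups of 4 arrays checked.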

How the results depend on the processing

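The median change of the 10 genes in D2 controls ranged from -0.62 to -0.34 over 39 alternatives. These fits reuse the D2 control arrays that chose the genes, so the range is a description only. No member was called for cocaine in D2 mutants, D1 mutants, D1 controls or their mean under any alternative run. The 4 members lower in D2 than in D1 mutants kept their calls in the 27 settings that left out an array. With the mean of all probe sets Pigl and Rapgef1 lost theirs. Counts of called genes depended more on the processing, and the cause was not tested. For cocaine in D2 controls (16 genes, 2 higher and 14 lower) they were 10 with cyclic loess (4 higher and 6 lower), 9 without a filter, 6 with the mean of all probe sets, 124 with array weights, 60 with the RNA quality covariate, 9 without the 3 arrays high in Ttr and 6 with D2 arrays alone. Median centring gave 5 higher and 10 lower. Scaling also moved the split by direction: cyclic loess gave 5 higher and 2 lower for D1 mutants (10 and 1) and 70 and 19 for the 3 strata (98 and 12), and median centring gave 8 and 2 for D1 mutants, 804 and 729 for mutants in D2 (1096 and 448) and 341 and 201 for mutants in D1 (399 and 141). For D2 mutants (0) they were 1 with median centring, 10 with array weights, 2 without the Ttr arrays, 1 with replicate 4 counted as a control and 1 with D2 arrays alone. For D1 mutants (11) they were 7 with cyclic loess, 218 with array weights and 7 with D1 arrays alone. For D1 controls (8) they were 2 with median centring, 1 with cyclic loess, 4 without a filter, 20 with a floor of 7, 0 with the mean of all probe sets, 14 with trend and robust moderation, 461 with array weights, 0 with the RNA quality covariate, 69 without the Ttr arrays and 0 with D1 arrays alone. Array weights gave 467 for the 3 strata (110), 54 for D1 mutants minus D1 controls (0, and 4 with cyclic loess), 1010 for mutants in D1 (540) and 305 for the difference of the mutant effect (129). Counting replicate 4 as a control gave 842 for mutants in D2 (1544) and 17 for the difference of the mutant effect.

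Leaving out each array gave 2 (without D2 control saline replicate 1 or 3) to 48 (without D2 control cocaine replicate 4) called genes for cocaine in D2 controls, 0 to 5 in D2 mutants, 3 to 43 in D1 mutants, 0 to 70 in D1 controls and 37 to 146 over the 3 strata. It gave 0 to 1 and 0 to 7 for the differences of the cocaine effect, 1212 to 1900 and 355 to 585 for mutants in D2 and D1, 63 to 145 for their difference, 2565 to 4155 for D2 against D1 in controls and 4726 to 5539 in mutants. Of the 10 members called lower in D2 controls, 1 remained called without D2 control saline replicate 3 and 2 without replicate 1. With the replicate block 11 genes were called in D2 controls (6 members), 3 in D2 mutants, 31 in D1 mutants and 4 in D1 controls. The numbers were not taken to pair the mice. Correlations of same-numbered deviations ran from -0.263 to 0.366, and in D2 controls they were 0.366, 0.277 and -0.06. Differently numbered arrays were not correlated for comparison, so these values cannot tell whether the numbers mark a shared batch.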
